A study of Mus musculus with 34 samples.

Results

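The difference between brown preadipocytes expressing K36M mutant histone H3.3 and those expressing WT histone H3.3 was described in cells that carried ectopic PPARγ and had not received its ligand. Its members were all genes that reached an RPKM of 1 in one or both of the 2 libraries, 11690 of 23109 genes. RPKM, which divides reads by transcript length and sequencing depth, sets read numbers on a common scale of length and depth, and a gene with several RefSeq transcripts was represented by the one with the highest mean RPKM over the 14 RNA-Seq libraries of the series. The cells were preadipocytes of interscapular brown fat of newborn C57BL/6J mice, immortalized with SV40T. They were infected with retroviruses expressing FLAG-tagged WT or K36M H3.3, selected with puromycin, infected again to express PPARγ, and selected with hygromycin. Both cultures received DMSO, the solvent of rosiglitazone (Rosi), and the labels place them at 0 h. The paper describes DMSO or 0.5 µM Rosi for 24 h on sub-confluent cells. According to the labels the cells carry GR-flox/flox alleles, with Vec or Cre as possible vectors, whereas the paper describes WT mice. There was 1 library per condition, so no difference below has a replicate check or a test. Each compares 2 libraries, and its 95% Clopper-Pearson interval, given in brackets, covers counting error only.

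PPARγ is the nuclear receptor that drives fat cell formation, and thiazolidinediones such as Rosi are its agonists. It acts together with C/EBPα, and each raises the expression of the other as preadipocytes become adipocytes. Lysine 36 of histone H3 is methylated in and around active genes, and its replacement by methionine inhibits the enzymes that methylate it. H3K36 methylation also hinders the methylation of lysine 27 by PRC2, the complex that keeps *Hox* and other developmental genes silent in cells that do not use them.

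The libraries held 21749427 mapped reads for WT cells and 24365867 for K36M cells, within a range of 12213559 to 24365867 over the 14 libraries. On a transcript of 1 kb, 3 reads correspond to an RPKM of 0.138 in WT and 0.123 in K36M cells. *Pparg*, which the virus supplied to both cultures, had 60.2 RPKM in WT and 71.8 RPKM in K36M cells, compared with 13.4 and 11.5 in the cells without ectopic PPARγ. The mutation itself cannot be read from RPKM, and the endogenous H3.3 genes *H3f3a* (10.9 and 11.2 RPKM) and *H3f3b* (183 and 168 RPKM) do not check the label. *Nr3c1*, which encodes the glucocorticoid receptor, had 10.5 and 10.1 RPKM. Of the defining fibroblast and preadipocyte genes, *Vim* (2605 and 1859 RPKM) and *Col1a1* (883 and 966 RPKM) were abundant, and *Pdgfra* had 7.30 and 6.01 RPKM. Of 14 preadipocyte and mesenchymal markers listed, 12 were members, and the others were below 1 RPKM in both libraries. *Alb*, *Ptprc*, *Adgre1*, *Pecam1*, and *Myod1*, which define hepatocytes, leukocytes, macrophages, endothelium, and muscle, were each at or below 0.174 RPKM. Other markers of these cells were not all near 0. *Acta1*, on the skeletal muscle list, had 31.4 and 67.5 RPKM and was over 2-fold higher in K36M cells. Summed RPKM in WT and K36M cells was 33.5 and 70.2 for muscle and 5.66 and 8.38 for endothelial markers. It was 3.82 and 6.26 for macrophage and leukocyte markers and 0.771 and 1.24 for hepatocyte markers. Low-level signal was wider in K36M cells. Of 1456 olfactory and vomeronasal receptor genes, 375 were above 0 in WT and 671 in K36M cells, with mean RPKM of 0.0152 and 0.0305. Of 4 Y-linked genes, *Kdm5d*, *Ddx3y*, and *Uty* were over 2-fold lower in K36M cells and *Eif2s3y* was not (3.49 and 5.57 RPKM), while *Xist* had 3.70 and 6.13 RPKM. With the mean receptor RPKM subtracted from each library, the counts of genes over 2-fold given below were 595 higher and 375 lower, against 595 and 364 as deposited. The subtracted means lie far below the 1 RPKM that each member reaches, so this subtraction could change few calls. The part of the low-level signal and of the sex-linked values in the results was not tested.

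Most genes differed little. Of the 11690 genes, 595 were over 2-fold higher in K36M cells (5.09%) and 364 were over 2-fold lower (3.11%), which left 91.8% within 2-fold. The median log2 ratio was -0.015, with quartiles of -0.21 and 0.18. Higher genes came mostly from low levels, since 361 of the 595 (60.7%) had an RPKM under 1 in WT cells, and 177 of the 364 lower genes (48.6%) had an RPKM under 1 in K36M cells. The counting interval excluded a ratio of 1 for 555 higher and 331 lower genes. Over 8-fold differences numbered 113 higher and 32 lower. WT cells listed 26 of the members at 0, and K36M cells listed 12. Counts of list members below stand beside these shares of all members, 5.09% higher and 3.11% lower. A gene that reached 1 RPKM only in the library where it is high passed the filter through that library, so the counts describe the lists and support no statement about them.

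**Figure D1:**
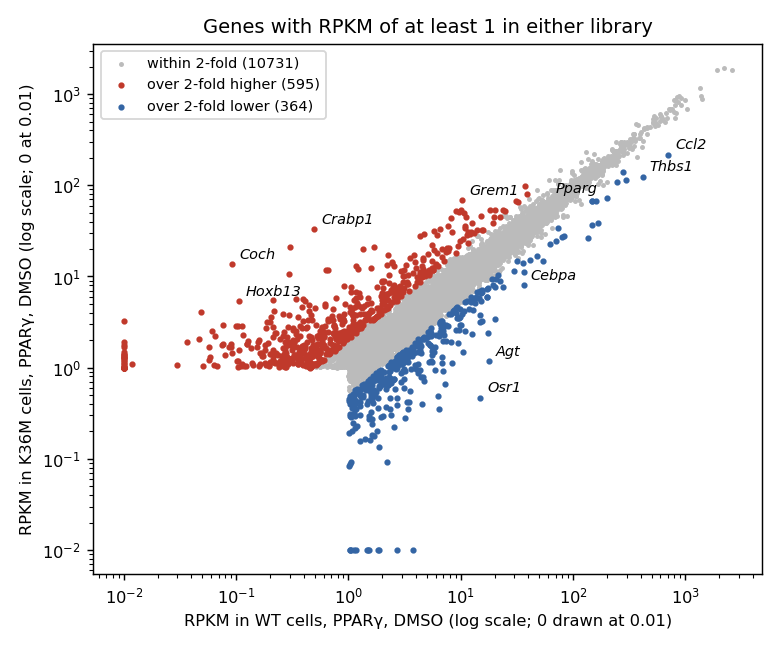
RPKM of the 11690 genes in WT cells (x axis) and K36M cells (y axis), both with PPARγ and DMSO, on log scales with 0 drawn at 0.01. Each point is 1 gene from 1 library per condition. Grey points lie within 2-fold, and the 595 red and 364 blue points lie over 2-fold higher and lower in K36M cells, with the farthest points at low WT or low K36M levels.

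Among the genes of adipogenesis that the study followed, *Cebpa*, the C/EBPα gene (transcript NM_007678 on chromosome 7, from 35904312 to 35906945 on NCBIM37, mm9), was over 2-fold lower. WT cells had 36.2 RPKM (2079 reads) of *Cebpa*, and K36M cells had 7.98 RPKM (513 reads). Its log2 ratio was -2.18 (-2.32 to -2.04). Without ectopic PPARγ, the same gene had 6.64 RPKM in WT and 6.33 RPKM in K36M cells at D0 (-0.07, -0.29 to 0.15). In Ctrl shRNA cells at D0, also without PPARγ, it had 14.7 RPKM. These libraries come from separate experiments, in which genes such as the ribosomal protein gene *Rpl24* (1.31 RPKM in WT cells at D0, 97.8 RPKM in WT cells with PPARγ and DMSO) differed widely, so levels across experiments are given side by side only.

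Of 18 adipogenic transcription factors, 15 were members, 2 were over 2-fold higher, and 2 were over 2-fold lower, with a median log2 ratio of -0.21. Besides *Cebpa*, the lower gene was *Klf4*, a Krüppel-like factor of early adipogenesis, with 23.6 and 7.67 RPKM in WT and K36M cells (-1.62, -1.76 to -1.48). *Klf5*, another factor of that family, had 0.746 and 2.95 RPKM, and *Zfp467*, which favours the fat over the bone lineage, had 0.324 and 1.72 RPKM. Of 16 inhibitors of adipogenesis, 1 was over 2-fold higher and 3 were lower. *Zfp521*, a zinc finger protein that restrains brown and white adipogenesis, had 3.15 RPKM in WT and 0.961 RPKM in K36M cells (-1.72, -2.0 to -1.44). *Sox9*, a factor of cartilage progenitors, had 7.75 and 2.87 RPKM, and *Foxo1* had 4.60 and 2.04 RPKM. *Wnt10b*, a Wnt ligand that blocks adipogenesis, was the higher one, with 0.537 and 1.33 RPKM.

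The genes that the study followed as PPARγ targets differed among themselves before any ligand was added. *Fabp4*, the fatty acid binding protein of adipocytes, had 112 RPKM in WT and 69.4 RPKM in K36M cells (log2 ratio -0.69, -0.81 to -0.58). *Lpl*, which encodes lipoprotein lipase, had 71.0 and 49.7 RPKM (-0.51, -0.57 to -0.46). Both were lower in K36M cells by less than 2-fold. *Scd1*, a fatty acid desaturase, had 27.7 and 29.5 RPKM (0.09, 0.02 to 0.17), a difference larger than counting error and small beside the quartiles over all genes. *Irs2*, an adaptor of the insulin receptor, was over 2-fold lower, with 6.82 and 3.11 RPKM (-1.13, -1.34 to -0.93). *Cd36*, a fatty acid translocase, had 1.15 and 0.217 RPKM with 85 and 18 reads (-2.40, -3.23 to -1.66). The other genes of this group were below 1 RPKM in both libraries and were not members. *Slc2a4*, the insulin-responsive glucose transporter, had 5 and 13 reads, and its interval of -0.37 to 3.06 included 0. *Adrb3*, a beta-adrenergic receptor, had 0.197 RPKM in WT and 0.573 RPKM in K36M cells from 12 and 39 reads. *Ppargc1a*, a coactivator of mitochondrial genes, had 13 and 3 reads.

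Genes of lipid storage were over 2-fold in both directions and in few members. Fatty acid uptake and binding genes had a median log2 ratio of -0.51 over 11 members, of which 1 was over 2-fold lower (*Cd36*) and 1 higher (*Vldlr*, a lipoprotein receptor, 0.553 and 1.46 RPKM). Lipid droplet proteins had a median of -0.43 over 11 members. *Plin1*, the coat protein of the adipocyte lipid droplet, had 2.37 and 0.684 RPKM (-1.79, -2.43 to -1.20), *Plin4* had 42.5 and 26.8 RPKM, and *Cidec* had 3.78 and 2.12 RPKM. *Bscl2*, which encodes seipin, was over 2-fold higher, with 5.71 and 11.6 RPKM. In triglyceride synthesis and lipolysis, *Gpd1* (1.95 and 0.648 RPKM) and the lipase inhibitor *G0s2* (1.53 and 0.292 RPKM) were over 2-fold lower and *Mogat2* (0.623 and 1.64 RPKM) was higher among 13 members. None of 11 lipogenic and desaturase genes and none of 18 fatty acid oxidation genes passed 2-fold, with medians of 0.09 and 0.20. *Acly*, which makes cytosolic acetyl-CoA, had the largest difference of the first list, with 69.6 and 48.7 RPKM, and *Hadhb*, a subunit of the mitochondrial trifunctional protein, that of the second, with 2.27 and 2.95 RPKM.

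Of 19 thermogenic genes 7 were members. The 3 that were over 2-fold higher in K36M cells reached 1 RPKM in that library only. *Bmp8b*, a secreted factor of brown fat, had 0.125 and 1.80 RPKM, *Lhx8*, a homeobox factor of brown preadipocytes, had 0.349 and 2.06 RPKM, and *Ucp2*, a mitochondrial carrier, had 0.823 and 3.67 RPKM. *Ucp1*, the uncoupling protein of brown fat, was listed at 0 in both libraries. Of 10 mature adipocyte markers 6 were members, with summed RPKM of 128 in WT and 76.5 in K36M cells, most of it *Fabp4*, and 3 were over 2-fold lower. In bulk RNA, fewer cells of a kind and less RNA per cell cannot be told apart.

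Of the secreted proteins of adipocytes and of the acute phase, 7 of 15 members were over 2-fold lower and 2 higher, beside 3.11% and 5.09% of all members, with a median log2 ratio of -0.46. *Agt*, which encodes angiotensinogen (NM_007428, chromosome 8 from 127080434 to 127093606), stood at 17.9 and 1.18 RPKM with 714 and 53 reads (-3.92, -4.35 to -3.51). *Hp*, which encodes the haemoglobin-binding protein haptoglobin, had 6.22 and 0.488 RPKM (-3.67, -4.51 to -2.93). *Cfd*, the adipocyte protease adipsin, had 2.34 and 0.356 RPKM, *Apln*, the ligand apelin, had 3.93 and 1.08 RPKM, and *Adipoq*, the adiponectin gene, had 1.46 and 0.400 RPKM. The acute-phase genes *Saa3* (5.20 and 2.24 RPKM) and *Lcn2* (1.29 and 0.481 RPKM) were also lower. *Rarres2*, the chemerin gene, had 2.34 and 4.81 RPKM, and *Rbp4* had 0.791 and 1.63 RPKM.

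Promoters of 5 genes are shown because they were among the genes that differed most or carry the adipogenic comparison, with *Cebpa*, *Agt*, and *Foxd1* lower and *Crabp1* and *Krt18* higher in K36M cells. Each is the 250 bases before the start in RefSeq on GRCm38.p6, on the gene's own strand. Capitals mark, on either strand, the letters TATAAA of a TATA box, the letters CCAAT of a CCAAT box, the letters AGGTCA of a nuclear receptor half-site, and the letters CACCTG of an E-box. Over 32851 promoters of the same length, these letters occur in 12.4%, 33.8%, 14%, and 17.2%, respectively, and the median number of CG pairs is 6 (quartiles 2 and 16).
*Cebpa*: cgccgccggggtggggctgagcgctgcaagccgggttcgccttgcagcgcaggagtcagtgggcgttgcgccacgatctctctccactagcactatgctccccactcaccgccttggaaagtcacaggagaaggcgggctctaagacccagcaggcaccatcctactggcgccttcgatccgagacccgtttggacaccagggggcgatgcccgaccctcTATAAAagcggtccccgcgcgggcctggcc
*Agt*: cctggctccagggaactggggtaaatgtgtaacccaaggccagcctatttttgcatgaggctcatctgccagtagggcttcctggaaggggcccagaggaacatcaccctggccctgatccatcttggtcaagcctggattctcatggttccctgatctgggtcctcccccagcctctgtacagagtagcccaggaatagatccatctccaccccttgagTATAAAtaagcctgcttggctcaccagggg
*Foxd1*: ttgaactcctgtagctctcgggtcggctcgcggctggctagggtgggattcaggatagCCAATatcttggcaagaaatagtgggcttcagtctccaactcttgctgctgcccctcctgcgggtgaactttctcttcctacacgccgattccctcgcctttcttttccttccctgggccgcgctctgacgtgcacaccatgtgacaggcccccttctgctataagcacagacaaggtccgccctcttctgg
*Crabp1*: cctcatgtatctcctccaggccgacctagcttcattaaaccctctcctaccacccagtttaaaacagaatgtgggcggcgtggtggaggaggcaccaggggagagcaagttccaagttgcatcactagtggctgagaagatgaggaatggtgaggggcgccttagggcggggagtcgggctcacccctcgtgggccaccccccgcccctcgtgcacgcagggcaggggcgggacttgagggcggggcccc
*Krt18*: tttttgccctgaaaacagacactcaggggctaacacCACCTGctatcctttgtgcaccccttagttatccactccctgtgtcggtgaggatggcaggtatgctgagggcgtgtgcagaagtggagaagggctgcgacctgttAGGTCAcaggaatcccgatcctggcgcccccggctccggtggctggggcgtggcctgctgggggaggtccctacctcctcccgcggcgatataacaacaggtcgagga
In *Cebpa* (chr7:35119043-35119292) and *Agt* (chr8:124569707-124569956), TATAAA began 30 bases before the start. They differed in CG pairs, with 22 in *Cebpa* and 0 in *Agt*. *Foxd1* (chr13:98353995-98354244), *Crabp1* (chr9:54764498-54764747), and *Krt18* (chr15:102027966-102028215) each held 12 CG pairs. *Foxd1* held a CCAAT 192 bases before the start, *Krt18* held a CACCTG at 214 and an AGGTCA at 108 bases, and *Crabp1* held none of the letters searched. Such matches are descriptions of sequence and not binding sites. Promoters were found for 75.7% of the higher and 78.6% of the lower protein-coding genes, under the 80% set for a comparison over the groups, so none was made.

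The 12 genes with the largest decrease, of those that reached 5 RPKM in WT cells, were *Osr1*, *Tmem26*, *Agt*, *Hp*, *Foxd1*, *Nrg1*, *Fabp7*, *Anxa8*, *Rgs4*, *Mme*, *Six2*, and *Foxc1*, with log2 ratios from -4.98 to -2.58. *Osr1*, a zinc finger factor of embryonic mesoderm (NM_011859, chromosome 12 from 9581248 to 9588305), stood at 14.8 and 0.469 RPKM with 647 and 23 reads (-4.98, -5.65 to -4.38). *Foxd1*, a forkhead factor of stromal progenitors, had 7.19 and 0.667 RPKM (-3.43, -3.94 to -2.96). *Foxc1*, a forkhead factor of mesenchyme, had 20.3 and 3.40 RPKM (-2.58, -2.75 to -2.41), and *Six2*, a homeobox factor of progenitor cells, had 6.80 and 1.13 RPKM (-2.59, -3.02 to -2.18). *Tmem26*, a membrane protein used as a beige adipocyte marker, had 6.44 and 0.349 RPKM. *Nrg1*, a ligand of ERBB receptors, had 6.97 and 0.917 RPKM. *Mme*, a cell-surface peptidase, had 5.84 and 0.939 RPKM. Of 44 developmental transcription factors outside the *Hox* clusters, 10 were over 2-fold lower and 5 higher, beside 3.11% and 5.09% of all members, with a median of -0.05. With a pseudocount of 1, the counts were 6 and 2. *Sox5*, *Foxf2*, *Sox11*, *Tbx2*, *Tbx18*, and *Msx2* were the other lower ones. The higher ones were *Gata4* (0.271 and 1.56 RPKM), *Foxf1* (0.346 and 1.70 RPKM), *Tbx5* (0.268 and 1.28 RPKM), *Runx3* (1.80 and 3.67 RPKM), and *Irx2* (5.17 and 10.5 RPKM), so both directions occurred within the forkhead and T-box families.

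*Hox* genes encode homeobox factors laid out in 4 clusters, in an order that matches the body axis. Of 39 genes 31 were members, of which 7 were over 2-fold higher and 2 lower, beside 5.09% and 3.11% of all members. With a pseudocount of 1, 4 were higher and 1 lower, and the list's median log2 ratio was -0.02 as deposited. *Hoxb13* (chromosome 11 from 96055630 to 96058761) stood at 0.105 RPKM with 3 reads in WT cells and at 5.34 RPKM with 171 reads in K36M cells (5.67, 4.10 to 7.96). The other 9 genes of the *Hoxb* cluster stayed within 2-fold or below 1 RPKM, with *Hoxb9* next to it in the cluster at 34.3 and 54.5 RPKM. In the *Hoxa* cluster, *Hoxa9* (0.243 and 1.10 RPKM), *Hoxa10* (0.319 and 2.73 RPKM), and *Hoxa11* (0.0615 and 2.54 RPKM) were higher in K36M cells, while *Hoxa7* was lower (1.67 and 0.799 RPKM) and *Hoxa3* to *Hoxa6* had log2 ratios between -0.79 and -0.54. *Hoxa9*, *Hoxa10*, and *Hoxa11* reached 1 RPKM in K36M cells only and were members through that library. Their direction therefore gives no pattern along the cluster. All 3 members of the *Hoxd* cluster were higher, with *Hoxd8* at 1.97 and 6.54 RPKM. The others were under 1 RPKM in WT cells and were members through the K36M library. *Hoxd10* and *Hoxd13*, which were not members, were listed at 0 in WT cells and had 24 and 35 reads in K36M cells, 0.551 and 0.579 RPKM. Low-level signal was wider in the K36M library, and its part in these values was not tested. In the *Hoxc* cluster, *Hoxc13* was lower (15.0 and 5.35 RPKM; -1.49, -1.68 to -1.30), and none of the 9 genes was over 2-fold higher.

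**Figure D2:**
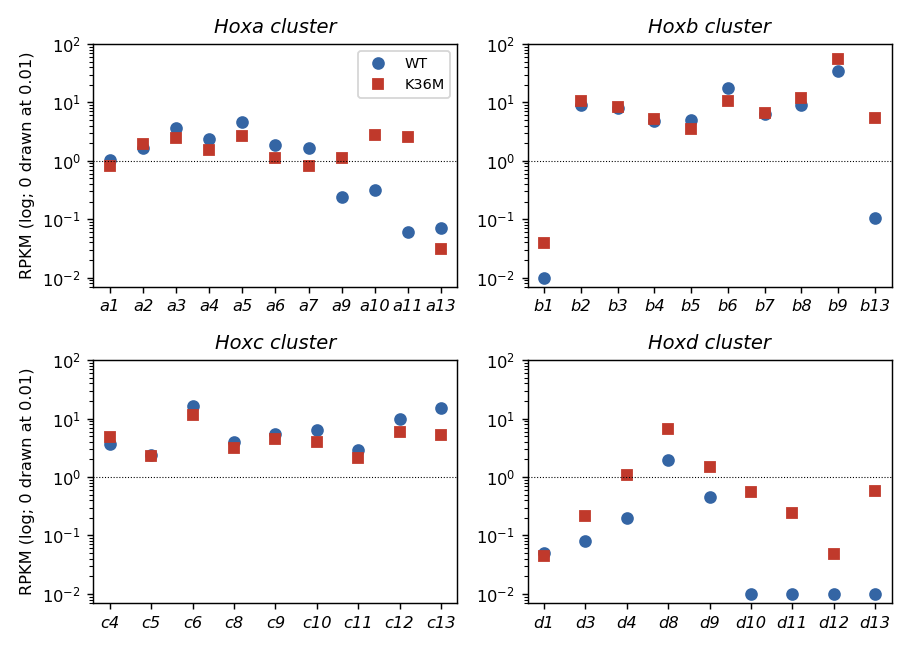
RPKM of the 39 *Hox* genes in WT cells (blue circles) and K36M cells (red squares) with PPARγ and DMSO, 1 panel per cluster in chromosomal order, on log scales with 0 drawn at 0.01. The dotted line marks an RPKM of 1. *Hoxa9* to *Hoxa11*, *Hoxb13*, and most *Hoxd* genes lie higher in K36M cells, and *Hoxc13* lies lower.

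The genes with the largest increase, of those that reached 5 RPKM in K36M cells, included *Coch*, *Crabp1*, *Krt18*, *Hoxb13*, *Sp9*, *Icam1*, *Efs*, *Cdh3*, *Stxbp2*, *Perp*, and *Mdk*. Of these, all but *Efs* and *Mdk* were under 1 RPKM in WT cells. *Coch*, an extracellular protein of the inner ear (chromosome 12 from 52694361 to 52706760), stood at 0.0925 and 13.7 RPKM with 5 and 830 reads (7.21, 5.98 to 8.84). *Crabp1*, which encodes a binding protein of retinoic acid (chromosome 9 from 54612555 to 54620917), had 8 reads and 592 reads, or 0.496 and 32.8 RPKM (6.05, 5.06 to 7.26). *Sp9*, a zinc finger factor of limb and brain development, had 0.637 and 11.9 RPKM. *Icam1*, a leukocyte adhesion molecule, had 0.652 and 11.7 RPKM. *Mdk*, the growth factor midkine, had 1.68 and 20.9 RPKM.

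Some of the genes with low WT levels encode proteins known from epithelia. *Krt18*, a keratin of simple epithelia, had 0.296 and 10.6 RPKM (5.16, 4.22 to 6.30), and its partner *Krt8* had 0.0764 and 1.82 RPKM from 3 and 80 reads (4.57, 2.97 to 6.88). *Cldn7*, a tight junction protein, had 0.140 and 1.12 RPKM. *Cdh3*, which encodes P-cadherin, had 0.342 and 5.64 RPKM, and *Perp*, a desmosomal protein, had 0.411 and 5.42 RPKM. The defining genes *Epcam* and *Cdh1* stayed near 0, with 0 and 4 reads and with 2 and 8 reads, and *Krt19* was alike in both libraries (52.5 and 57.1 RPKM). *Krt18*, *Krt8*, and *Cldn7* reached 1 RPKM in K36M cells only and were members through that library. The whole list summed to 53.3 RPKM in WT and 71.6 RPKM in K36M cells. Of 11 cartilage and bone markers, *Col2a1* (10.9 and 35.5 RPKM) and *Sp7* (0.221 and 2.41 RPKM) were higher and *Sox9* was lower. *Cd74*, an invariant chain gene of antigen presentation, was the single leukocyte marker over 2-fold higher (0.113 and 1.11 RPKM). Of the preadipocyte and mesenchymal markers, *Thy1* (8.43 and 30.6 RPKM) and *Eng* (10.9 and 34.2 RPKM) were higher and none was lower among 12.

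Ligands and receptors of signalling pathways moved in both directions. In the Wnt pathway 7 of 18 members were over 2-fold higher and 4 lower, beside 5.09% and 3.11% of all members. The ligand gene *Wnt2b* had 0.219 and 4.16 RPKM (4.25, 3.55 to 5.04), and the transcription factor gene *Tcf7* had 0.475 and 3.32 RPKM. In contrast, *Rspo2*, which encodes an enhancer of Wnt signalling, had 1.56 and 0.160 RPKM (-3.28, -4.24 to -2.45), and *Sfrp2*, a secreted Wnt modulator, had 12.6 and 2.34 RPKM (-2.43, -2.74 to -2.14). In the TGF-beta and BMP pathway 4 of 24 members were higher and 1 was lower, with a median of -0.10. *Grem1*, a secreted BMP antagonist, had 10.3 and 68.3 RPKM (2.73, 2.57 to 2.89). *Inhbb*, an activin subunit, had 2.24 and 17.4 RPKM. *Ltbp4*, which binds latent TGF-beta, had 2.21 and 13.3 RPKM. *Id4*, an inhibitor of helix-loop-helix factors, was lower (4.02 and 0.964 RPKM). Among growth factors, *Angpt1*, a ligand of the TIE2 receptor, had 2.56 and 0.222 RPKM (-3.53, -4.23 to -2.90) and *Hgf*, the ligand of MET, had 2.27 and 0.641 RPKM, while *Pgf*, of the VEGF family, had 1.17 and 3.74 RPKM and *Fgf18* had 0.466 and 1.44 RPKM. Within insulin signalling, the binding proteins *Igfbp4* (3.85 and 17.1 RPKM) and *Igfbp6* (6.49 and 33.0 RPKM) were higher, and the phosphodiesterase gene *Pde3b* (2.41 and 0.707 RPKM) was lower together with *Irs2*. Besides *Crabp1*, the retinoic acid binding protein gene *Crabp2* (0.255 and 1.32 RPKM) was higher, and *Cyp26b1*, an enzyme that degrades retinoic acid, was lower (3.59 and 0.969 RPKM).

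Chemokines and cytokines had the lowest median of the lists with at least 10 members, -0.72, with 7 of 15 over 2-fold lower and 2 higher, beside 3.11% and 5.09% of all members. *Ccl2*, a monocyte attractant, had 704 RPKM in WT and 216 RPKM in K36M cells (-1.70, -1.75 to -1.65). *Cxcl1*, a neutrophil attractant, had 147 and 36.5 RPKM (-2.01, -2.12 to -1.90). *Il1rn*, the antagonist of the interleukin 1 receptor, had 1.62 and 0.183 RPKM, and *Ccl9* had 14.7 and 3.78 RPKM. *Il11*, a cytokine of the interleukin 6 family, went the other way, with 0.733 and 4.43 RPKM. Interferon-stimulated genes were higher in 6 of 31 members and lower in 0, beside 5.09% and 3.11% of all members, with a median of 0.27. With a pseudocount of 1, 2 of them were higher. *Zbp1* (0.294 and 1.89 RPKM), *Ifi27l2a* (2.28 and 10.3 RPKM), *Oas2* (0.333 and 1.38 RPKM), and *Rsad2* (0.437 and 1.32 RPKM), which are genes of the antiviral response, had the largest differences. Of 18 genes of MHC class I presentation, 2 were higher, *H2-Q4* (7.33 and 18.6 RPKM) and *Psmb9* (1.25 and 3.16 RPKM). Reads of *H2-Q4* and other near-identical class I genes may be split among copies.

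Matrix genes were among the most abundant that differed. *Thbs1*, which encodes thrombospondin 1, had 416 and 124 RPKM (-1.75, -1.77 to -1.72), *Thbs2* had 162 and 67.3 RPKM, and *Fn1*, the fibronectin gene, had 281 and 140 RPKM, just past the threshold. *Adamts5*, a protease of proteoglycans, had 15.5 and 3.27 RPKM, and *Fbln5*, a protein of elastic fibres, was higher, with 4.05 and 9.94 RPKM. In all, 5 of 26 non-collagen matrix genes were lower and 2 higher, beside 3.11% and 5.09% of all members. Collagens differed in 4 of 19 members, with *Col2a1*, *Col5a3* (5.60 and 14.9 RPKM), and *Col7a1* (5.67 and 12.2 RPKM) higher and *Col15a1* (3.24 and 1.35 RPKM) lower. Of the contractile genes and targets of SRF or YAP, *Ccn2*, a matricellular protein, had 200 and 72.8 RPKM, while *Myh11* (0.391 and 3.23 RPKM) and *Des* (0.920 and 3.84 RPKM), which encode smooth muscle myosin and desmin, were higher. Among all genes over 2-fold, 18 lower ones reached 50 RPKM in WT cells and 12 higher ones reached 50 RPKM in K36M cells. These counts include identifiers without a symbol that may be further transcripts of a counted gene. NM_183151 had values close to those of *Mid1*, and NM_001083929 had values close to those of *Gpx3*. Lower ones included *Cited2*, a transcriptional coregulator (136 and 26.5 RPKM), *Ptx3*, a pentraxin of innate immunity (168 and 38.6 RPKM), and *Gas1*, a Hedgehog coreceptor (53.7 and 14.9 RPKM). Higher ones included *Gpx3*, a secreted glutathione peroxidase (10.1 and 53.9 RPKM), *Plac8* (8.98 and 51.7 RPKM), and *Serpine2*, a protease inhibitor (20.3 and 54.0 RPKM).

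Imprinted genes, which are expressed from 1 parental copy, had a median log2 ratio of 0.82 over 20 members, against -0.015 over all members. Of these, 7 were over 2-fold higher and 1 was lower, beside 5.09% and 3.11% of all members. With a pseudocount of 1, 5 were higher and 1 lower, with a median of 0.62. Without PPARγ at D0 the median was 0.15, with 3 of 23 higher and 0 lower. With PPARγ and Rosi it was 0.38, with 7 of 21 higher and 0 lower. In the *Nsd2* knockdown it was -0.49, with 2 of 22 higher and 8 lower. *Peg3* had 0.444 and 4.14 RPKM (3.22, 2.85 to 3.61), *Mest* had 0.462 and 2.10 RPKM, *Slc38a4* had 7.58 and 20.6 RPKM, and *Nnat* had 2.00 and 5.45 RPKM. *Peg3* and *Mest* were members through the K36M library only. *Rian* (13.2 and 29.7 RPKM) and *Mirg* (1.45 and 3.89 RPKM) come from 1 cluster, so they are not separate observations. *Grb10*, an adaptor that restrains insulin signalling, was the lower one, with 11.8 and 4.39 RPKM. Of 44 germline genes measured, *Xlr3a* alone was a member (0.419 and 1.32 RPKM). Of 68 histone genes picked by symbol 49 were members, 13 were over 2-fold higher and 1 was lower, beside 5.09% and 3.11% of all members. Transcripts of replication-dependent histone genes lack the poly(A) tail by which mRNA was purified, and the list was not limited to such genes. The part of purification in these counts was not tested.

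**Figure D3:**
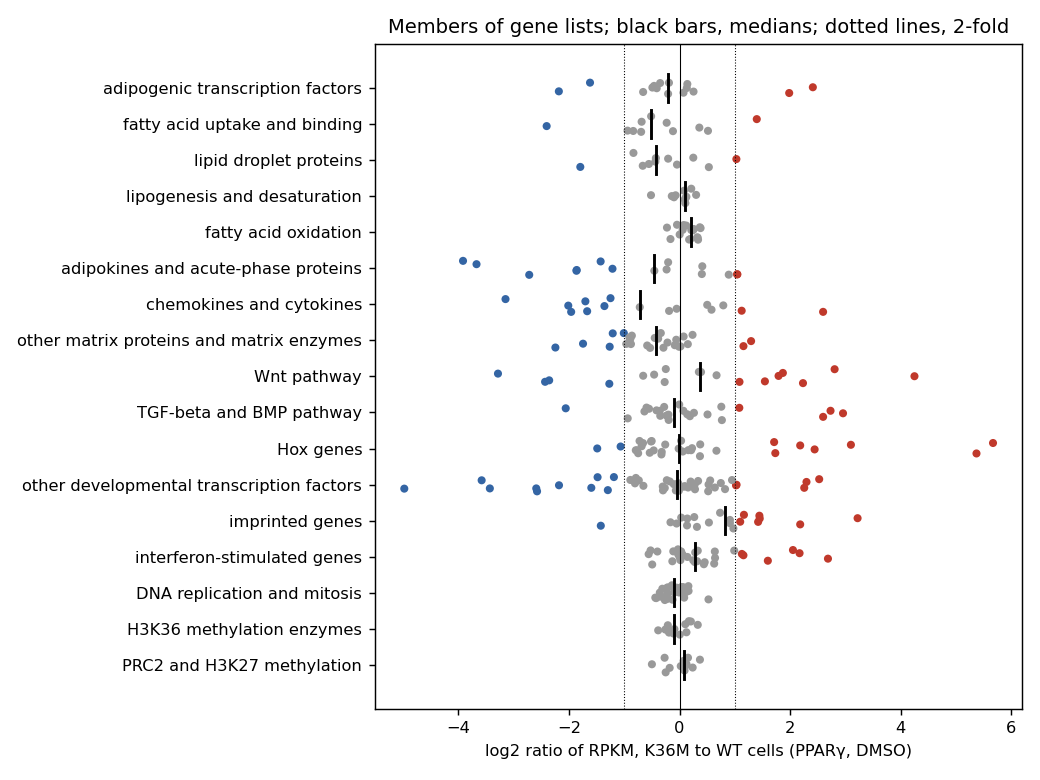
Log2 ratio of RPKM in K36M to WT cells, with PPARγ and DMSO, for the members of 17 gene lists. Each point is 1 gene (red, over 2-fold higher; blue, over 2-fold lower; grey, within 2-fold), with vertical scatter added for legibility. Black bars are medians and dotted lines mark 2-fold. Chemokines lie lowest and imprinted genes highest by median, while replication and chromatin genes stay within the dotted lines.

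Some lists had no gene past 2-fold, and they stand beside the 91.8% of all members that lay within it. None of 32 genes of DNA replication and mitosis passed in either direction, with a median of -0.10. The largest difference among them was in *Rrm2*, a subunit of ribonucleotide reductase, with 136 and 196 RPKM. None of 13 writers and erasers of H3K36 methylation, 13 genes of PRC2 and H3K27 methylation, 14 genes of H3.3 and its chaperones, or 8 genes of the glucocorticoid receptor and its targets passed. *Nsd2*, an H3K36 methyltransferase, had 16.8 and 18.4 RPKM, *Setd2*, which trimethylates H3K36, had 8.19 and 9.21 RPKM, and *Ezh2*, the catalytic subunit of PRC2, had 24.8 and 20.6 RPKM. Of 25 cell cycle inhibitors and p53 targets, *Perp* alone passed, and *Cdkn2a*, which encodes p16 and p19, had 76.1 and 147 RPKM, just under 2-fold.

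The same contrast was measured in pairs of libraries that share none with the pair above. The paper describes DMSO and Rosi as treatments of the same PPARγ-expressing cells, so the Rosi pair measures those populations again. Whether the cultures without PPARγ were infected with H3.3 separately is not given in the sources used here. They may share cells of 1 infection, and no pair is counted as a replicate. Without ectopic PPARγ at D0, K36M cells had 615 of 12239 genes over 2-fold above WT cells (5.02%) and 779 below them (6.36%). Of the 595 genes higher with PPARγ, 244 were also higher there (41.0% of the 595, 39.7% of the 615) and 13 were over 2-fold lower. Of the 364 genes lower with PPARγ, 215 were also lower there (59.1% of the 364, 27.6% of the 779) and 8 were higher. With PPARγ and Rosi, 7.02% of 11987 genes were higher and 12.1% lower. There, 292 of the 595 genes were again higher (49.1%) and 14 lower, and 242 of the 364 were again lower (66.5%) and 4 higher. Low-level signal was wider in K36M cells with Rosi too, with 331 olfactory and vomeronasal receptor genes above 0 in WT and 789 in K36M cells. Without PPARγ at D0 these were 51 and 65. The part of this signal in the shared calls was not tested. All 3 pairs shared the direction over 2-fold for 172 higher (28.9%) and 168 lower genes (46.2%). Of the 24 genes with the largest differences, 12 in each direction, 23 were among these, including *Coch* (log2 ratios of 7.21 with PPARγ and DMSO, 4.96 without PPARγ, and 5.81 with Rosi), *Osr1* (-4.98, -4.21, and -4.82), and *Agt* (-3.92, -3.86, and -5.52). *Icam1* was the exception, with 4.16 with DMSO and 0.91 without PPARγ, where the WT library had 3.89 RPKM.

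**Figure D4:**
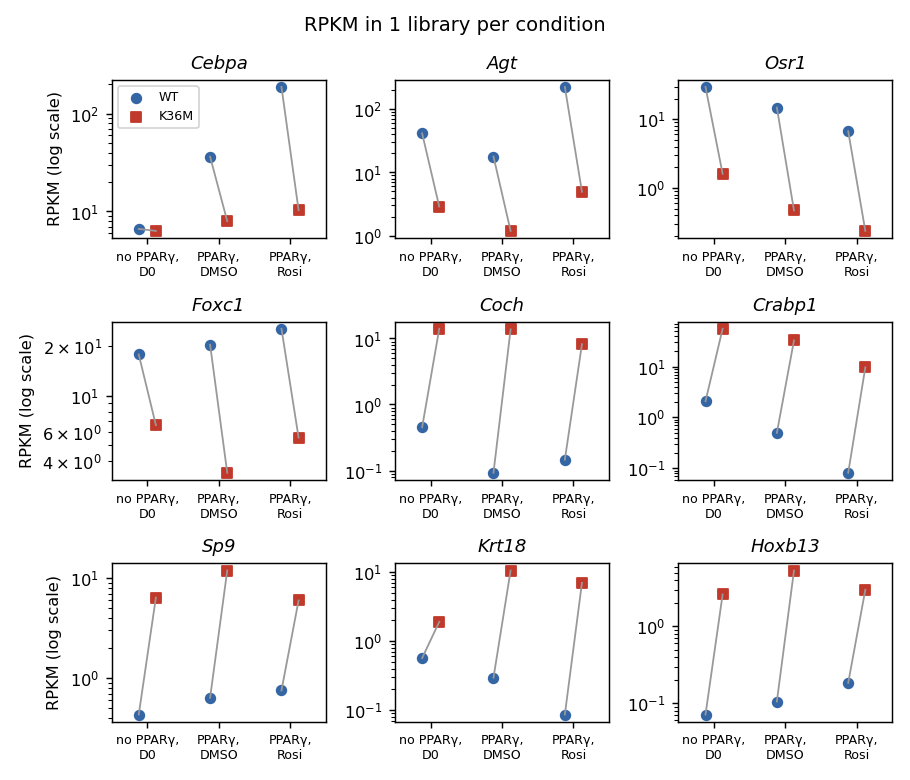
RPKM of 9 genes in WT cells (blue circles) and K36M cells (red squares) without PPARγ at D0, with PPARγ and DMSO, and with PPARγ and Rosi, on log scales that differ between panels. Each symbol is 1 library and grey lines join the pair. *Cebpa* has nearly equal values without PPARγ (6.64 and 6.33 RPKM) and lower values in K36M cells in both pairs with PPARγ, and the other 8 genes keep their direction in all 3 pairs.

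Some groups differed between the pairs in their counts. Interferon-stimulated genes, with 6 of 31 members higher and 0 lower with PPARγ, had 1 of 35 higher and 6 lower without it. In the pair with PPARγ and Rosi, 0 of 34 were higher and 12 lower, with a median of -0.86. In the *Nsd2* knockdown 33 of 34 were lower, with a median of -4.05. Chemokines and cytokines were lower in 7 of 15 members with PPARγ and DMSO, 16 of 24 without PPARγ, and 8 of 17 with Rosi. Adipokines and acute-phase proteins were lower in 7 of 15, 16 of 19, and 12 of 18, in the same order. With a pseudocount of 1, the 7 lower adipokines and acute-phase proteins with PPARγ and DMSO were 4. DNA replication and mitosis genes, with none over 2-fold and a median of -0.10 with PPARγ, had 7 of 32 higher and a median of 0.60 without it, and 1 higher and 4 lower with Rosi. The labels describe confluent cells at the start of adipogenesis and the paper describes sub-confluent cells with PPARγ, so confluence may differ too and cannot be told apart from PPARγ here. The largest shifts between the ratios with and without PPARγ, among genes reaching 5 RPKM in any of the 4 libraries, were in *Dcn*, *Cxcl5*, *Pcp4l1*, and *Lbp* on one side and *Prl2c3*, *Slc7a3*, *B4galnt2*, and *Ostn* on the other. *Dcn*, the decorin gene, had 32.9 and 0.481 RPKM without PPARγ and 6 and 3 reads with it (-1.16, -3.79 to 1.06). *Prl2c3*, of the prolactin family, had 1.43 and 28.3 RPKM without PPARγ and 798 and 861 RPKM with it. *Cxcl5*, a neutrophil chemokine, had 35.3 and 2.56 RPKM without PPARγ and 3.17 and 5.48 RPKM with it. In *Prl2c3* reads may be shared with near-identical family members.

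**Figure D5:**
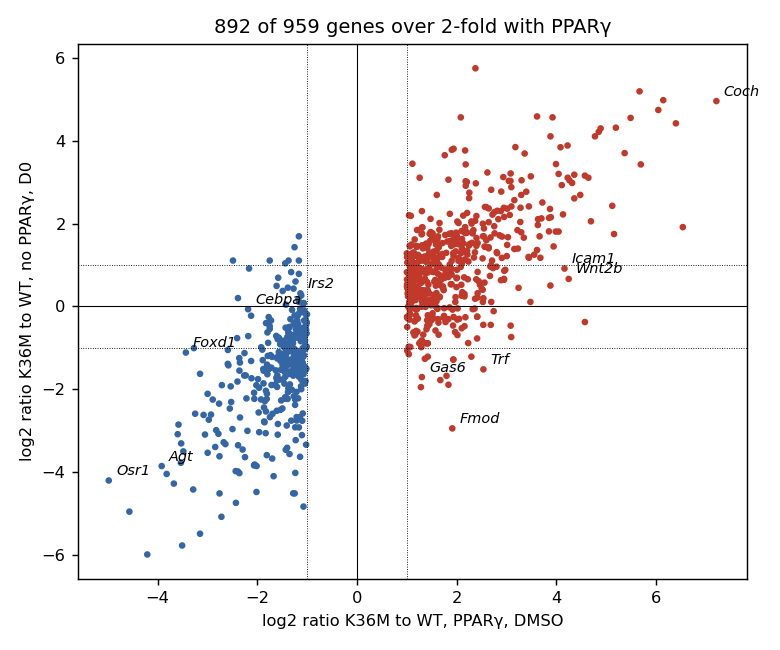
Log2 ratio of K36M to WT RPKM with PPARγ and DMSO (x axis) and without PPARγ at D0 (y axis) for 892 of the 959 genes over 2-fold with PPARγ, those with finite ratios in both pairs. Each point is 1 gene, red where higher and blue where lower with PPARγ, and dotted lines mark 2-fold. Points lie mostly in the lower left and upper right, with *Cebpa* and *Irs2* near 0 on the y axis.

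In *Nsd2* knockdown cells at D0, compared with Ctrl shRNA cells, 6.61% of 11982 genes were over 2-fold higher and 10.8% lower. Of the 595 genes higher in K36M cells with PPARγ, 132 were higher (22.2%) and 113 lower (19%) in the knockdown. Of the 364 lower genes, 109 were lower (29.9%) and 46 higher (12.6%). *Cebpa* (14.7 RPKM in Ctrl and 0.239 RPKM in knockdown cells), *Agt* (14.6 and 0.25 RPKM), and *Osr1* (22.2 and 5.45 RPKM) were lower in the knockdown, whereas *Coch* (0.244 and 0.0462 RPKM) stayed below 1 RPKM. *Krt18* had 0.108 and 7.79 RPKM.

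The called genes differed from the others in base composition, which the rule did not use, and in length, which enters RPKM and so the filter. The median GC content was 54.7% for transcripts of higher genes, 49.2% for lower genes, and 50.8% for all protein-coding members, and the median length was 2173, 3249, and 2751 bases. From the lowest to the highest of 5 equal bins of GC content, the share of higher genes went from 2.43% to 8.94% and that of lower genes from 3.79% to 2.29%. Without PPARγ at D0 the share of higher genes went from 3.28% to 7.46%, and in the *Nsd2* knockdown from 4.35% to 8.43%. The part of base composition and length in the results was not tested.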

How the data were processed

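Polyadenylated RNA of mouse brown preadipocytes had been sequenced in 14 libraries, each the single one of its condition. Each file deposited by the authors lists RPKM for 29082 RefSeq transcripts. The submitters' processing notes name CASAVA 1.8.2 and mm9; the program that counted the RNA-Seq reads is not given in the sources used here. Symbols from RefSeq were matched to 28436 transcripts (97.8%), and unmatched identifiers were kept, some of which may be further transcripts of a matched gene (NM_001083929 has ratios close to those of *Gpx3*). Whole reads were recovered from the RPKM values for all 26946 transcripts with reads in 2 or more libraries and for 642 of 1275 with reads in 1, within 2e-05 of whole numbers. Recovery, calls, and intervals were tested on simulated data. The simulated reads held counting error only, and the changed transcripts were taken from those with many reads. Changes at low levels and variation between cultures were therefore not checked. Ratios use RPKM as deposited, with no pseudocount, and a gene was called at over 2-fold. No test was possible with 1 library per group.

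Genes were named when the study names them for this experiment, when among the 12 largest differences each way on log2(RPKM + 0.1), when among the 4 largest of a list, or when among the 4 largest shifts each way between pairs. Other list members, *Hox*, Y-linked, and abundant genes were named after their values were seen. A few genes that these rules select are not reported here. The members and the 40 lists were chosen with earlier results of these data known. Coordinates are GENCODE M1 on NCBIM37 (mm9). Alternatives were other pseudocounts, RPKM filters, rescaling, thresholds, and transcripts. Of the series, ChIP-Seq was not used here. Python 3.11.15, numpy 2.4.6, pandas 2.3.3, and scipy 1.17.1 were used.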

Additional observations from a re-analysis of the deposited data

Results flagged for a closer look

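Of the genes over 2-fold with PPARγ, 13 were higher in K36M cells there and over 2-fold lower without PPARγ at D0, and 8 were lower with and higher without it. These were 2.2% of the 595 higher and 2.2% of the 364 lower genes. Over all genes tested at D0, 6.36% were over 2-fold lower and 5.02% higher, so such reversals were no more frequent than those shares. They are listed because the same contrast went in opposite directions in the 2 experiments. With 1 library per condition, the difference between the experiments was not tested. All 8 of the second kind are small RNAs or other noncoding RNAs of few reads. The 9 protein-coding genes of the first kind follow, each with its K36M to WT log2 ratio in the PPARγ experiment before that at D0. *Fmod*, the small matrix proteoglycan fibromodulin, had 1.91 and -2.95. *Trf*, the iron carrier transferrin, had 2.54 and -1.52. *Gas6*, a ligand of TAM receptors, had 1.30 and -1.71, from levels of 12 and 29.5 RPKM with PPARγ and 53.9 and 16.5 RPKM without it. *Syt13*, a synaptotagmin, had 1.80 and -1.68, and *Ecscr*, an endothelial cell surface protein, had 1.67 and -1.78. *Angpt2*, an antagonist of the TIE2 receptor, had 1.36 and -1.27, and *Itm2a*, a membrane protein, had 1.28 and -1.95. *Rarres2*, the chemerin gene, had 1.04 and -1.16, and *Tmem176a* had 1.01 and -1.07. In WT cells with PPARγ, *Trf*, *Ecscr*, *Angpt2*, *Fmod*, and *Itm2a* were at 0.237 to 0.930 RPKM. They were members through the K36M library, where low-level signal was wider. *Trf*, *Ecscr*, *Angpt2*, and *Fmod* were also under 1 RPKM in K36M cells at D0. No intervals are given for these ratios.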

How the results depend on the processing

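The 595 higher and 364 lower genes depended most on the treatment of low values. A pseudocount of 1 left 316 and 170, an RPKM of at least 5 in either library 175 and 132, and an RPKM of at least 1 in both libraries 234 and 187. With RPKM above 0 as the filter there were 4991 and 1739, and over 4-fold there were 250 and 88. Each follows from its own construction. The other settings stayed within 1.5 times, including rescaling by the median ratio (607 and 354), the longest transcript (589 and 365), NM identifiers with a symbol (519 and 304), and 2 alternatives added after the data were seen, subtraction of the receptor background (595 and 375) and removal of histone and short noncoding genes (543 and 325). Over the gene lists, 80 genes higher and 53 lower became 49 and 34 with a pseudocount of 1. The shares of called genes that kept their direction in other pairs stayed within 1.5 times under both alternatives. No sign reversed among 149 alternative values of named genes over 2-fold. A pseudocount added to both libraries cannot reverse a sign, and a rescaling factor of 0.985 cannot do so for a gene over 2-fold. For these settings the outcome was fixed in advance, so it does not check the values. No paired analysis was possible because each condition has 1 library. For genes under 1 RPKM in 1 of the libraries, depth limits the ratio to the width of its interval.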
